A study of Homo sapiens with 4 samples.

Results

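The 9 genes described here encode aldo-keto reductases of steroid and carbonyl metabolism. They are AKR1C1, AKR1C2, AKR1C3, AKR1C4, AKR1B10, AKR1A1, AKR1D1, AKR7A2 and AKR7A3. They were chosen by name, as 9 of the 62655 genes counted, and 8 of them had enough reads to be tested among 14464 genes. The choice was made with results of these libraries in view, so the mimic and control values of the members below are a description and lend no independent support to a direction.

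The cells behind all 4 libraries were Hep G2, an established line from a human liver tumour. Cells were plated at 150000 per ml, moved after 24 h to medium rich in oleic acid, which loads them with lipid, and transfected after a further 24 h using HiPerFect reagent. The mimic group (2 libraries) received an oligonucleotide copy of LysTTT-5'tRF, a piece cut from the 5' end of a lysine tRNA whose anticodon is TTT, and the control group (2 libraries) a negative control oligonucleotide. RNA was taken 24 h after transfection, so the groups share the line, the lipid load and the transfection, and neither cells without oleic acid nor untransfected cells are among the samples analysed here. The question put by the comparison is which transcripts differ when the fragment is added to lipid-loaded cells.

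Most aldo-keto reductases use NADPH to turn carbonyl groups into alcohols. The AKR1C enzymes interconvert active and inactive steroid hormones, AKR1D1 acts on bile acid precursors and steroid hormones in liver, and the AKR1B, AKR1A and AKR7A enzymes reduce sugar aldehydes, lipid aldehydes and toxic carbonyls. Several AKR1C genes and AKR1B10 are known targets of NRF2, the transcription factor of the oxidant response, and AKR1B10 is known to be high in many liver tumours.

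The AKR1C genes lie side by side on chromosome 10 and are close copies, which bears on how reads can be assigned to them. The coding sequences of AKR1C1 and AKR1C2, each 972 bases long, differ at 19 positions and are 98.0% identical, with an unbroken identical run of 189 bases from coding base 784 to 972. AKR1C1 is 91.5% identical to AKR1C3 and 88.5% to AKR1C4. The stretch below, coding bases 103 to 162 in GENCODE 29 transcripts, is the 60 bases in which AKR1C1 and AKR1C2 differ most, and capitals mark bases that differ from AKR1C1.
AKR1C1: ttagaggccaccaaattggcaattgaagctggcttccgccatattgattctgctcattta
AKR1C2: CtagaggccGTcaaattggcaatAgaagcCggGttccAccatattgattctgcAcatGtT
AKR1C3: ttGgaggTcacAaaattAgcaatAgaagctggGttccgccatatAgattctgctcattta
AKR1C4: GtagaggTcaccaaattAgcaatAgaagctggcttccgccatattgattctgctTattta
In this stretch AKR1C2 differs from AKR1C1 at 10 positions, AKR1C3 at 7 and AKR1C4 at 5.

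Over the whole coding sequence, 35.7% of the windows of 75 bases in AKR1C1 and 41.0% of those in AKR1C2 also occurred, letter for letter, in a transcript of another gene. The share was 15.3% for AKR1C3, shared with AKR1C1, AKR1C2 and AKR1C4, and 6.90% for AKR1C4. AKR1B10 had 12.9%, shared with its neighbour AKR1B15 and the pseudogene AKR1B10P1. AKR7A2 had 5.47% and AKR7A3 18.4%, both shared with AKR7L and with each other. AKR1A1 and AKR1D1 had 0 such windows. The read length is not given in the sources used here, and with windows of 50 or 100 bases the share of AKR1C1 was 54.5% or 21.0%. A read that aligns to several places was kept out of the gene counts, so the counts of AKR1C1 and AKR1C2 rest on the stretches where they differ and are less certain than those of AKR1A1 and AKR1D1. By contrast, none of the 9 genes has an exon that overlaps an exon of another annotated gene on either strand.

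**Figure D1:**
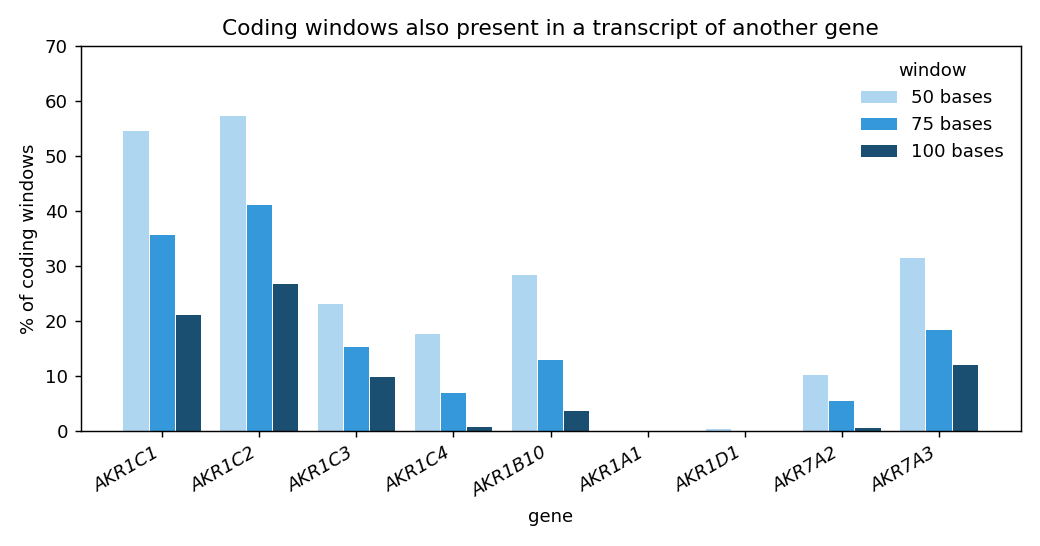
Share of the coding windows of each gene that also occur in a transcript of another gene (y axis, %), for windows of 50, 75 and 100 bases (bar colours). AKR1C2 and AKR1C1 have the highest shares at 75 bases (41.0% and 35.7%), and AKR1A1 has 0 at each length.

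The starts of AKR1C1 and AKR1C2 are nearly the same as well. The windows from 250 bases before to 50 bases after each start (RefSeq, GRCh38.p14) are shown because these genes gave the largest fold changes among the members; that of AKR1C1 is chr10:4963165-4963464 on the plus strand and that of AKR1C2 chr10:5003808-5004107 on the minus strand. Capitals mark bases that differ or have no partner inside the overlap.
AKR1C1: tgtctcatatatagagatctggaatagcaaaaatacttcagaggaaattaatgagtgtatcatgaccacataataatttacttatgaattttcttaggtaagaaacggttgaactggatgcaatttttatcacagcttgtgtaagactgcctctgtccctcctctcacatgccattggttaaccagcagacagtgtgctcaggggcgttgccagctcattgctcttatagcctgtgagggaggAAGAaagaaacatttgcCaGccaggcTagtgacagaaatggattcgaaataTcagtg
AKR1C2: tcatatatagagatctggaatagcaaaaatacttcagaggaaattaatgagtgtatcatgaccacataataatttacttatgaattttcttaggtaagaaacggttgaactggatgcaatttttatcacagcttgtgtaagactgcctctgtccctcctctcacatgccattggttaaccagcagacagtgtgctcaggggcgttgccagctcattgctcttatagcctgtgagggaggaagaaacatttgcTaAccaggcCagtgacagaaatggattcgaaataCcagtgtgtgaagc
Of 292 aligned bases 288 are identical, and 4 bases of AKR1C1 have no partner in AKR1C2.

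Windows of the same length were searched on both strands for the core of the antioxidant response element that NRF2 binds (TGACNNNGC), the AP-1 site (TGANTCA) and the TATA box (TATAAA); the first motif can share bases with the second. Windows were at hand for 8 of the 9 members. The NRF2 core was found in the AKR7A2 window, with 3 matches, and in 0 windows of AKR1C1, AKR1C2, AKR1C3, AKR1C4, AKR1A1, AKR1D1 and AKR7A3. It occurs in 13.3% of all 35116 windows. The AP-1 letters were in 0 member windows and in 7.71% of all windows, and the TATA box letters were in 1 of the 2 windows of AKR1C3, in that of AKR1C4 and in 11.5% of all. These are matches of letters in a short window and show neither the presence nor the absence of a bound factor.

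Reads assigned to genes numbered 15430539 and 18961222 in mimic libraries 1 and 2, against 16793484 and 15970530 in control libraries 1 and 2. The share of reads that aligned to several places was 8.35% and 8.47% in the mimic libraries, 8.30% in control library 1 and 10.4% in control library 2. Markers of hepatocytes were high in all 4 libraries (albumin, ALB, between 7991 and 10192 CPM, counts per 1000000 after TMM scaling of the library sizes). Of the 6 macrophage markers PTPRC, CD163 and MARCO were at 0 and all 6 summed to at most 0.523 CPM, the 6 endothelial markers summed to between 10.9 and 13.4 CPM, the 6 stellate cell or fibroblast markers to between 30.3 and 35.4 CPM with DCN at 0, and the 5 adipocyte markers to between 5.17 and 9.19 CPM with ADIPOQ, LEP and FABP4 at 0. The 5 cholangiocyte markers summed to between 931 and 1035 CPM, mostly from SOX9 and KRT19, with KRT7 at 0. SOX9 had 418 and 433 CPM with the mimic, 408 and 420 CPM for the control. KRT19 was lower in both mimic libraries (352 and 366 CPM) than in both control libraries (390 and 459 CPM), with a log2 fold change of -0.24 that did not pass (adjusted p = 0.0688, quasi-likelihood in edgeR); its part in the results below was not tested. No label tells whether libraries of 1 group are separate cultures. The p-values therefore reflect only how these libraries vary, and that variation may be technical. In such bulk RNA, fewer cells of a type and less RNA per cell cannot be told apart.

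AKR1C1 was the most abundant member. Its share of the reads of all 9 genes came to 67.8% and 66.5% in mimic libraries 1 and 2, against 64.5% and 61.8% in control libraries 1 and 2. Per length of exon, as CPM per kb of the union of annotated exons (mean ± SD over the 4 libraries), AKR1C1 stood at 106 ± 22.3, AKR1B10 at 75.8 ± 11.5 and AKR1C3 at 35.6 ± 2.70. AKR7A2 (17.1 ± 1.87), AKR1C2 (16.2 ± 3.22) and AKR1A1 (15.7 ± 0.585) followed and did not differ beyond their spread. Reads that align to several places are missing from these values, while the full length is kept. Of the transcript windows of 75 bases, 22.2% in AKR1C1 and 41.3% in AKR1C2 recur in another gene, against 0% in AKR1A1. The values of AKR1C1 and AKR1C2 may thus be too low. AKR1D1 was at 3.98 ± 0.484, AKR1C4 at 0.300 ± 0.0782 and AKR7A3 at 0.171 ± 0.0978, and the spreads of the last 2 overlapped. The order depends on the length used. Per kb of the longest transcript, AKR1C3 (89.4 ± 6.77) lay beside AKR1B10 (83.1 ± 12.6), still below AKR1C1 (139 ± 29.2). Per kb of the median coding transcript, a setting added after seeing the data, AKR1C1 stood at 1087 ± 228 and AKR1C3 at 136 ± 10.3, above AKR1B10 at 83.1 ± 12.6 and AKR1C2 at 81.4 ± 16.2. The order of AKR1C3 and AKR1B10 was thus the reverse of that per union of exons. For AKR1C1 the median coding transcript has 858 bases, fewer than its coding sequence of 972, and the longest has 6705. The rise of AKR1C1 from 106 to 1087 comes from the length used alone.

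**Figure D2:**
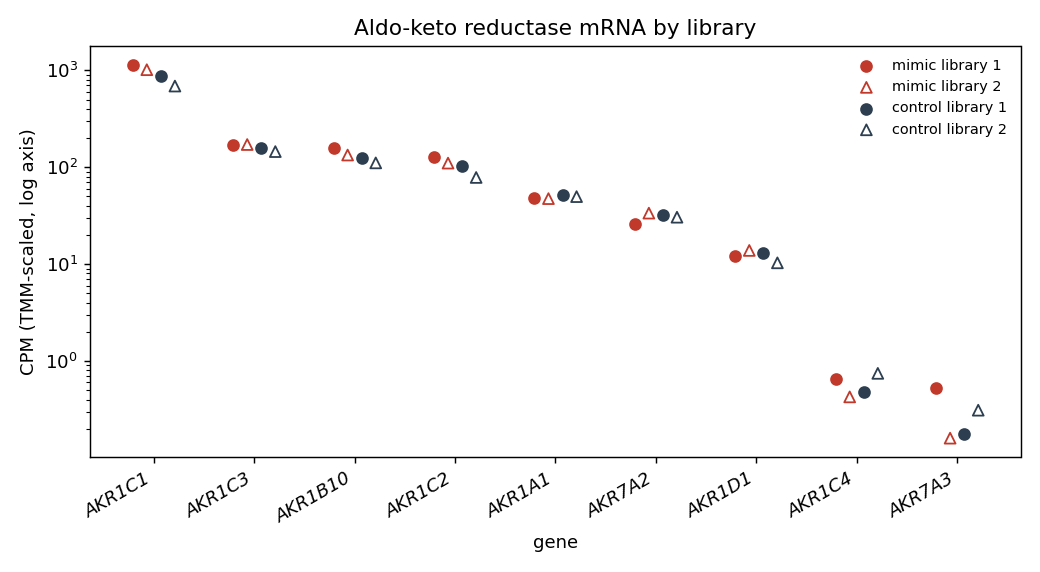
Expression of each member in each library, in CPM on a log axis. AKR1C1 lies between 689 and 1147 CPM, while AKR1C4 and AKR7A3 stay below 1 CPM in each library.

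Of the 8 members tested, AKR1C1 and AKR1C2 rose with the mimic at an adjusted p under 0.05 and none fell, in the quasi-likelihood test of edgeR, with p adjusted over all 14464 genes by the Benjamini-Hochberg (BH) method. Of all genes tested 0.346% passed in either direction and 0.277% passed with the mimic higher; since the members were chosen with this comparison known, nothing is read from the count. AKR1C1, AKR1C2, AKR1C3 and AKR1B10 were higher in both mimic libraries than in both control libraries, as were 19.8% of all genes tested. AKR1A1 was lower in both, as were 19.3% of all genes. The median log2 fold change was 0.17 over the 8 members and 0.00 over all genes tested.

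AKR1C1 (ENSG00000187134, chromosome 10, 4963253 to 4983283 of GRCh38) reduces progesterone to a less active steroid. It was at 1147 and 1016 CPM in mimic libraries 1 and 2 and at 879 and 689 CPM in control libraries 1 and 2. The groups did not overlap, with mimic library 1 highest and control library 2 lowest. Mean levels were 1081 ± 92.5 CPM (mimic) and 784 ± 135 CPM (control; SD, n = 2 each), a 1.38-fold difference. On the log2 scale it was 0.46, standard error 0.07 and 95% interval 0.32 to 0.61 (adjusted p = 0.00195, quasi-likelihood in edgeR, BH). DESeq2 gave the same log2 fold change of 0.46 but an adjusted p of 0.374 (Wald test, BH; unadjusted p = 0.0179). Leaving out 1 library at a time moved the value between 0.30, without control library 2, and 0.65, without control library 1. These fits leave 1 library in a group, assumed to vary like the others, so their calls are no independent check. The call was lost when no filter on low counts was set (adjusted p = 0.754, edgeR, BH).

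AKR1C2 (ENSG00000151632, chromosome 10, 4987400 to 5018031) inactivates dihydrotestosterone. It was at 129 and 110 CPM in the mimic libraries and at 102 and 78.4 CPM in the control libraries, with no overlap and the same highest and lowest library as AKR1C1. On the log2 scale the difference was 0.40 (standard error 0.09), or 1.32-fold (adjusted p = 0.0441, quasi-likelihood in edgeR, BH). This call was near the threshold and was lost in 8 of 13 other settings. Among them were limma voom (adjusted p = 0.0524), RLE scaling (0.0503), legacy = TRUE (0.0619), a filter at 5 CPM (0.0658) and no filter (0.754), the last 4 in edgeR. It was also lost in DESeq2 (log2 fold change 0.40, adjusted p = 0.663, Wald test, BH), without mimic library 1 (0.28, adjusted p = 0.15, edgeR) and without control library 2 (0.22, adjusted p = 0.306, edgeR).

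The counts of AKR1C2 followed those of AKR1C1 closely. AKR1C2 made up 10.1% (95% Wilson interval 9.67 to 10.5) and 9.80% (9.40 to 10.2) of the sum of both in mimic libraries 1 and 2. The corresponding control shares were 10.4% (9.96 to 10.9) and 10.2% (9.70 to 10.8). These intervals, which cover counting error only, overlap one another in all 4 libraries. How much of the AKR1C2 count could come from AKR1C1 reads, or the reverse, was not tested. With the counts of AKR1C1 to AKR1C4 added up and fitted as 1 feature, the log2 fold change was 0.42 with a 95% interval from 0.28 to 0.55 (adjusted p = 0.00264, quasi-likelihood in edgeR, BH). AKR1C1 alone gave between 75.4% and 79.3% of these summed reads, so the sum largely repeats its value, and reads that align to several copies are missing from it too. Control library 2 had both the lowest AKR1C1 and AKR1C2 values and the highest share of reads aligned to several places (10.4%); the part of the latter in the result was not tested.

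AKR1C3 (ENSG00000196139, chromosome 10, 5035354 to 5107686) makes testosterone from androstenedione and also acts on prostaglandins. It stood at 170 and 172 CPM in the mimic libraries and at 160 and 145 CPM in the control libraries. The groups did not overlap, and the mimic libraries lay close together. The log2 fold change of 0.17, with a 95% interval from 0.05 to 0.28, did not pass (adjusted p = 0.312, quasi-likelihood in edgeR, BH). It passed without control library 1 (0.24, adjusted p = 0.016, edgeR) and was at 0.10 without control library 2 (adjusted p = 0.836, edgeR). As a share of the summed reads of AKR1C1, AKR1C2 and AKR1C3, it was 11.8% (95% Wilson interval 11.3 to 12.2) and 13.2% (12.8 to 13.7) in mimic libraries 1 and 2, against 14% (13.5 to 14.5) and 15.9% (15.3 to 16.5) in control libraries 1 and 2. The intervals of mimic library 2 and control library 1 overlap, and whether AKR1C3 differs from AKR1C1 in its response was not tested.

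AKR1C4 (ENSG00000198610, chromosome 10, 5195462 to 5218949) is a form known from normal liver, where it works after AKR1D1 in bile acid synthesis. It had 10 and 8 reads in the mimic libraries and 8 and 12 in the control libraries, and the groups overlapped. Its interval, from -1.49 to 1.09 on the log2 scale, is wide enough that a difference of the size seen in AKR1C1 was not detectable at this depth. AKR1D1 (ENSG00000122787, chromosome 7, 138002324 to 138117986) stood at 12.1 and 13.8 CPM with the mimic, against 12.9 and 10.3 CPM in the control. Its groups overlapped as well, and its log2 fold change of 0.17 had an interval from -0.14 to 0.48 (adjusted p = 0.797, quasi-likelihood in edgeR, BH).

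**Figure D3:**
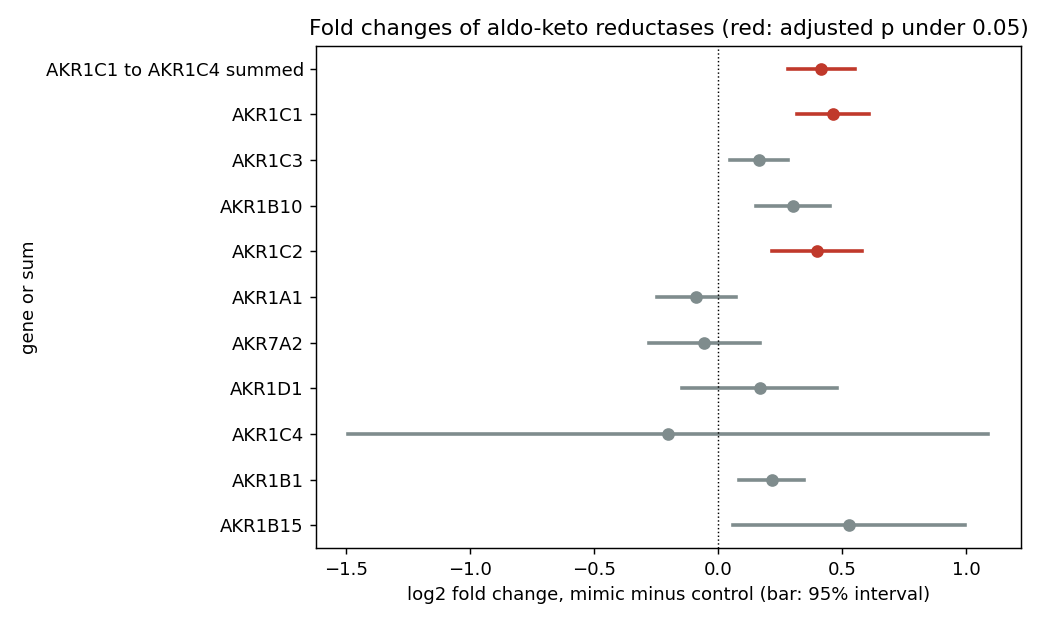
Log2 fold change, mimic minus control, with its 95% interval for the tested members, the summed AKR1C counts, and AKR1B1 and AKR1B15 (red, adjusted p under 0.05). AKR1C1 (0.46), AKR1C2 (0.40) and the sum (0.42) are red; AKR1C4, with 8 to 12 reads per library, has the widest interval.

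AKR1B10 (ENSG00000198074, chromosome 7, 134527592 to 134541408) reduces retinal and lipid aldehydes. It was at 159 and 134 CPM in the mimic libraries and at 125 and 111 CPM in the control libraries. The groups did not overlap, again with mimic library 1 highest and control library 2 lowest. The log2 fold change of 0.30, with a 95% interval from 0.16 to 0.45, did not pass (adjusted p = 0.0688, quasi-likelihood in edgeR, BH; 0.0867 in DESeq2). With 1 library left out it passed without mimic library 2 (0.43) and without control library 1 (0.40), and was at 0.18 without mimic library 1 (adjusted p = 0.715, edgeR) and 0.22 without control library 2 (adjusted p = 0.242, edgeR). AKR1B15, whose coding sequence is 92.8% identical to that of AKR1B10, had 7.58 and 5.75 CPM with the mimic against 5.17 and 3.91 CPM for the control, a log2 fold change of 0.53 that did not pass (adjusted p = 0.465 by the same test).

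The remaining aldehyde reductases gave no call. AKR1A1 (ENSG00000117448, chromosome 1, 45550543 to 45570049), a widely expressed aldehyde reductase, stood at 47.6 and 47.4 CPM with the mimic, against 51.3 and 49.7 CPM in the control. The groups did not overlap, but the log2 fold change of -0.09 had an interval from -0.25 to 0.07 (adjusted p = 0.79, quasi-likelihood in edgeR, BH). Control library 2, lowest for AKR1C1, was not lowest for AKR1A1 but was lowest for AKR1D1 (10.3 CPM). Neither AKR1A1 nor AKR1D1 shares a coding window of 75 bases with another gene. Whether shared windows bear on the values of control library 2 was not tested. AKR7A2 (ENSG00000053371, chromosome 1, 19303965 to 19312146), which reduces succinic semialdehyde and aflatoxin dialdehyde, was at 25.8 and 33.6 CPM with the mimic, against 31.8 and 30.5 CPM in the control. Both control values lay between those of the mimic libraries, and the log2 fold change was -0.06 with an interval from -0.28 to 0.17. AKR7A3 (ENSG00000162482, chromosome 1, 19282558 to 19289250), also an aflatoxin aldehyde reductase, had 8 and 3 reads with the mimic and 3 and 5 in the control, too few to be tested.

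**Figure D4:**
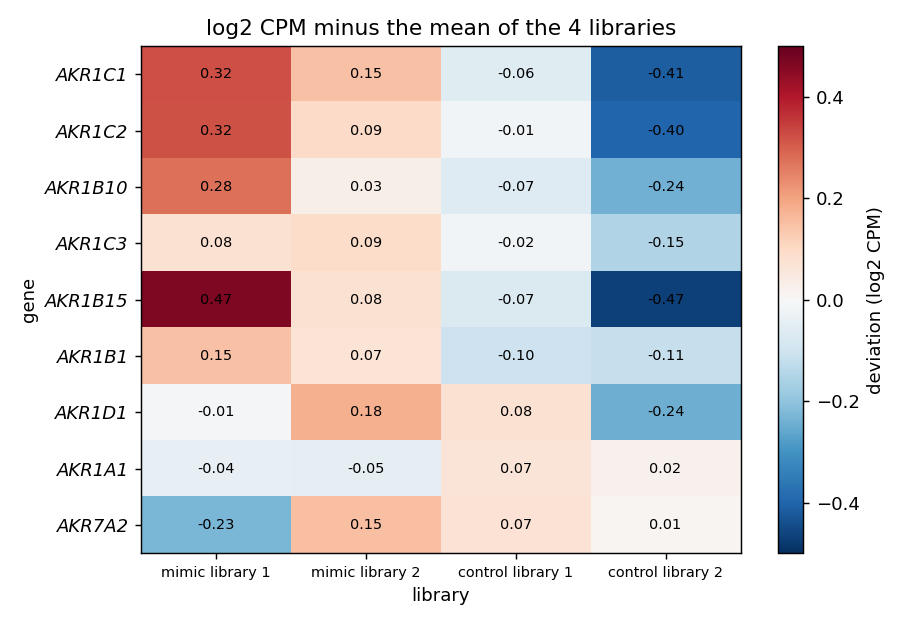
Deviation of log2 CPM from the mean of the 4 libraries, by gene and library (red above, blue below). AKR1C1 ranges from 0.32 in mimic library 1 to -0.41 in control library 2, while AKR1A1 stays between -0.05 and 0.07.

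The libraries of a group also differed among themselves. For AKR1C1 the deviations from the 4-library mean were 0.32 and 0.15 in mimic libraries 1 and 2, against -0.06 and -0.41 in control libraries 1 and 2 (log2 CPM). The gap between the control libraries was thus wider than that between mimic library 2 and control library 1. The corresponding deviations of AKR1B10 were 0.28, 0.03, -0.07 and -0.24. Among 10226 other genes averaging 5 CPM or more, those whose 4 deviations lay nearest to the sum of AKR1C1, AKR1C2 and AKR1C3 were the transcription factor genes SOX5, KLF5 and MXD1, with root mean square differences of 0.0218, 0.0219 and 0.0221 over 4 libraries. Their log2 fold changes were 0.43, 0.44 and 0.42. Because these genes were picked for like deviations, like fold changes follow from the choice. With so few libraries this likeness is a description.

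**Figure D5:**
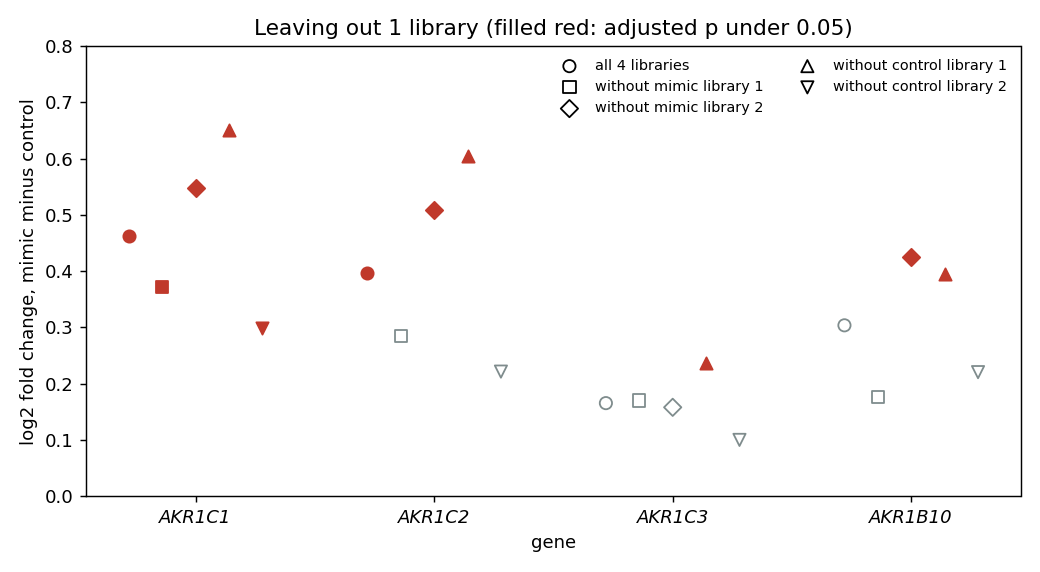
Log2 fold change of 4 members with all libraries and with each library left out (filled red, adjusted p under 0.05 in edgeR). AKR1C1 stays red from 0.30 to 0.65, and AKR1C2 is grey without mimic library 1 (0.28) and without control library 2 (0.22).

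The wider pathways of the family held no called gene with all 4 libraries in edgeR when no replicate block was fitted. The counts at an unadjusted p under 0.05 given below stand against 9.43% of all 14464 genes in edgeR and 1.5% of 30342 genes in DESeq2. Of 8 other aldo-keto reductases 5 were tested and 0 passed in edgeR (quasi-likelihood, BH), with 2 at an unadjusted p under 0.05 (1 of 7 in DESeq2) and a median log2 fold change of 0.08, against 0.00 over all genes tested. These 2 were AKR1B15 and AKR1B1. AKR1B1, the aldose reductase of the polyol pathway, was at 95.5 and 90.4 CPM with the mimic, against 80.3 and 79.6 CPM in the control (log2 fold change 0.22, 95% interval 0.08 to 0.35, adjusted p = 0.214, quasi-likelihood in edgeR, BH). Of 36 other enzymes of carbonyl and aldehyde metabolism 30 were tested and 0 passed in edgeR. At an unadjusted p under 0.05 there were 4 (2 of 34 in DESeq2), and the median was -0.03. The smallest p-values were those of the retinal dehydrogenase ALDH1A1 (531 and 513 CPM with the mimic, 480 and 468 CPM for the control, log2 fold change 0.14) and the alcohol dehydrogenase ADH4 (7.62 ± 0.436 against 10.9 ± 0.996 CPM, -0.52; mean ± SD, n = 2 each).

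Of 36 other genes of steroid hormone metabolism 25 were tested and 0 passed in edgeR. At an unadjusted p under 0.05 there were 4 (0 of 32 in DESeq2), and the median log2 fold change was 0.06. The lowest p-values belonged to scarce transcripts, the fetal liver P450 CYP3A7 (1.90 ± 0.730 CPM with the mimic, 0.758 ± 0.106 CPM without, SD, n = 2 each) and the oestrogen sulfotransferase SULT1E1 (0.370 ± 0.154 and 1.19 ± 0.509 CPM). Of 14 other bile acid synthesis genes 11 were tested and 0 passed in edgeR. At an unadjusted p under 0.05 there was 1 (1 of 13 in DESeq2), and the median was -0.01. The peroxisomal enzyme HSD17B4 had a log2 fold change of 0.15, and BAAT, which conjugates bile acids to amino acids, had one of -0.27.

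Of 31 other NRF2 targets 28 were tested and 0 passed in edgeR, with 6 at an unadjusted p under 0.05 (3 in DESeq2); 20 lay above 0 and 8 below, and the median log2 fold change was 0.04. The glutathione peroxidase GPX2 stood at 461 and 431 CPM with the mimic, against 414 and 361 CPM in the control (log2 fold change 0.20, adjusted p = 0.139, quasi-likelihood in edgeR, BH). The epoxide hydrolase EPHX1 had a log2 fold change of 0.21 (adjusted p = 0.229 by the same test). With the column number fitted as a replicate block both passed (adjusted p = 6.5e-05 for GPX2 and 0.020 for EPHX1, quasi-likelihood in edgeR, BH). Without control library 1 the log2 fold changes of GPX2 and EPHX1 were 0.31 and 0.26, and without control library 2 they were 0.11 and 0.16. Of 12 regulators, among them NRF2 itself (NFE2L2, log2 fold change 0.06, 95% interval -0.05 to 0.17) and its inhibitor KEAP1 (0.11, -0.02 to 0.24), 0 passed in edgeR, with 1 at an unadjusted p under 0.05 (0 in DESeq2) and a median of -0.01. That 1 was the bile acid receptor NR1H4 (0.35), followed by the NRF2 partner MAFG (0.11). Without control library 1, 2 of the 12 regulators passed. Of the 8 hepatocyte markers 1 passed in edgeR and 4 were at an unadjusted p under 0.05. Of the 8, 6 lay above 0 and 2 below, and the median log2 fold change was 0.07. The 1 that passed was ALB, at 0.23 (adjusted p = 0.0109, quasi-likelihood in edgeR, BH, and 0.342 in DESeq2). TTR was at 0.26 (adjusted p = 0.119, quasi-likelihood in edgeR, BH), AFP at 0.13 and FGB at 0.11. APOB and APOA1 were at 0.00, SERPINA1 at 0.03 and HNF4A at -0.05. Whether these marker values bear on AKR1C1 was not tested.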

How the data were processed

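The deposited values are raw read counts per Ensembl gene for 4 poly(A) libraries from a stranded kit, per the labels' protocols. STAR, Bowtie2, HTSeq and FastQC, and the build GRCh38.p14, are named in the submitters' processing notes; tool versions, annotation release and strandedness of counting were not given in the sources used here. Symbols were found for 62590 of the 62655 gene IDs. The 5 HTSeq summary entries held 23.1% to 24.1% of each library's total and were left out of every library size and test. Control columns carry the abbreviation of the negative control. The other columns carry an unexplained number and were taken as the mimic because the labels name no other treatment; if that were wrong, the direction would have no meaning. Library numbers are those of the columns.

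Counts were fitted in edgeR 4.0.16 (R 4.3.3) with filterByExpr (minimum count 10, minimum total 15), TMM scaling and glmQLFit and glmQLFTest (quasi-likelihood, legacy = FALSE), with Benjamini-Hochberg adjustment (BH, 14464 genes, threshold 0.05). CPM was taken on TMM-scaled library sizes, per 1000000. With 2 libraries per group an exact permutation test cannot go below p = 0.333, so none was used. Alternatives were DESeq2 1.42.0, limma voom (limma 3.58.1), other scalings and filters, a block and each library left out. Members and gene lists were chosen with earlier results of these data known. Named genes were all members, the 2 genes with the smallest p in each list, ALB, SOX9 as the highest of the other cell types' markers and the 3 genes nearest to the summed AKR1C counts. KEAP1, NFE2L2, KRT19 and the hepatocyte markers other than ALB fall outside this rule and were chosen after their values were seen. Exon lengths, transcripts and gene positions came from GENCODE 29 (GRCh38), whose release may differ from that behind the counts, and promoter windows from RefSeq (GRCh38.p14). The scripts were tested on simulated counts with planted changes.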

Additional observations from a re-analysis of the deposited data

How the results depend on the processing

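The number of genes called over the whole table, 50 in edgeR, was 0 with no filter on low counts (edgeR, 1514 at an unadjusted p under 0.05) and ranged from 20 without mimic library 1 to 424 without control library 1; it was 120 without mimic library 2, 22 without control library 2 and 37 in DESeq2, of which 28 were among the 50. Of the members, 2 were called in the main edgeR fit, which has no replicate block. In DESeq2 0 were called (3 at an unadjusted p under 0.05), and 0 with no filter (edgeR, 4 at an unadjusted p under 0.05). DESeq2 gave an adjusted p to 3282 of 30342 genes. Among the members it did so for AKR1C1, AKR1C2, AKR1C3 and AKR1B10 alone, so the others could not be called in it. The number of called members was 1, AKR1C1, with limma voom, with legacy = TRUE, with RLE scaling and with a filter at 5 CPM. With upper-quartile scaling and library totals the number was 2. With each library left out it lay between 1 and 4, being 1 without mimic library 1 and without control library 2, 3 without mimic library 2 and 4 without control library 1. AKR1C1 passed in 11 of 13 other settings and AKR1C2 in 5 of 13, with log2 fold changes above 0 in each (0.30 to 0.65 and 0.22 to 0.60). The 13 settings include a replicate block and each fit with 1 library left out, and none of these is an independent check on the main fit. AKR7A2 ranged from -0.27 to 0.11 and AKR1C4 from -0.51 to 0.15 with 1 library left out, so the sign of both changed. Leaving out 1 library gave 0 to 6 called NRF2 targets, 0 to 1 carbonyl enzymes and 0 to 2 regulators. No scaling moved the median of all genes by more than 0.02 on the log2 scale. A fit with 1 library in a group assumes that the lone library varies like the others.

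No label pairs the libraries by column number. The deviations of the libraries numbered 1 from their group means had a correlation of 0.0234 over 14464 genes. This value cannot exclude a pairing, because counting error in scarce genes lowers it. With the column number as a replicate block 306 genes were called. Of these, 4 were members (AKR1C1, AKR1C2, AKR1C3 and AKR1B10), 1 was another aldo-keto reductase, 1 a carbonyl enzyme and 4 were NRF2 targets. This fit leaves 1 residual degree of freedom. With 8 to 12 reads per library for AKR1C4 and 3 to 8 for AKR7A3, changes in these genes are beyond the depth of the data.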
